A study of Mus musculus with 16 samples.

Results

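The genes described here encode the proteins of the cytosolic ribosome, measured in whole embryonic mouse hearts on Illumina beadchips. Members were chosen by symbol alone: every probe named Rpl or Rps followed by a digit, or named Rplp0, Rplp1, Rplp2 or Rpsa, leaving out the S6 kinase genes and symbols ending in ps. Of 74 such probes on the table, 73 were detected on at least 2 of the 16 arrays and were kept, out of 14058 kept probes in all and 25696 on the array. The probe left out is 1 of 4 for Rpl23 and was detected on 1 array. The 73 probes carry 59 symbols, of 9697 among all kept probes, with 45 probes for the large subunit, 27 for the small subunit and 1 for Rps19bp1. That last gene meets the rule by its spelling, but it encodes a binding partner of Rps19 and no part of the ribosome, so 58 ribosomal protein genes remain without it. Rpl7, Rpl10a, Rpl11 and Rplp2 are not among the kept probes and were not analysed here.

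The study compared 5 genotypes at E9.25, all with 22 to 24 somites and on a mixed background of C57/BL6 and 129Ola. KO hearts (n = 3) carried MesP1-cre and 2 floxed Rbpj alleles (MesP1-cre:RBPJlox/lox). DKO hearts (n = 4) carried these and lacked both copies of Axin2 (MesP1-cre:RBPJlox/lox//Axin2-/-), and DKOhet hearts (n = 2) carried them and lacked 1 copy of Axin2 (MesP1-cre:RBPJlox/lox//Axin2+/-). HetDKO hearts (n = 3) kept 1 unfloxed Rbpj allele and lacked Axin2 (MesP1-cre:RBPJlox/+//Axin2-/-), and control hearts (n = 4) were wild type. Rbpj is the DNA-binding protein of Notch signalling, and Axin2 is part of the complex that degrades beta-catenin. MesP1-cre acts in early mesoderm, so cells of another origin in the dissected heart keep Rbpj. No probe is annotated to Rbpj or Axin2 on this table, so the labels could not be checked on the targeted genes here.

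Each cytosolic ribosome is built from ribosomal RNA and, for most ribosomal proteins, a single copy of each, which are made in the cytoplasm, imported into the nucleolus and assembled there into a large (Rpl) and a small (Rps) subunit. Most of their messenger RNAs begin with a run of pyrimidines, called a terminal oligopyrimidine (TOP) tract, through which mTORC1 controls their translation. Growing embryonic tissue makes these messenger RNAs in very large amounts, and several members have been tied to other processes, such as p53 control, when ribosome assembly fails.

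Arrays detected 12360 to 13196 probes each and correlated with one another at 0.957 to 0.990 over the kept probes. The arrays lay on 2 beadchips. Beadchip 1 held 2 arrays each of KO, DKO, hetDKO and control, and beadchip 2 held 2 arrays each of DKO, DKOhet and control with 1 each of KO and hetDKO. No label says whether each array is its own embryo, so the p-values reflect the spread among these samples alone, and that spread may be technical. Signal means background-corrected, quantile-normalised intensity as log2, so that 1 unit is a doubling. A member is called where its limma p is under 0.05 after Benjamini-Hochberg adjustment across the 14058 kept probes. Ribosomal protein genes have many processed pseudogenes, so a probe may also bind such copies.

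The main comparison sets the mean of KO, DKO and DKOhet, the 3 genotypes with 2 floxed Rbpj alleles, against the mean of hetDKO and control, with each group weighted equally. Of the 73 members 14 were called, 10 higher and 4 lower. That is 19.2% of the members, against 26.4% of all kept probes (12.2% higher and 14.3% lower). The order of these shares depended on the scaling and the filter: cyclic loess called 37.0% of the members against 26.3% of all kept probes, and with no filter on dim probes 24.3% of 74 member probes were called against 13.9% of all 25696. Most members moved little: 60 of 73 lay within 0.25 of no change on the log2 scale and 4 lay beyond 0.5. The median difference was 0.06 for the members and -0.02 for all kept probes, and 54 of the 73 members were positive. Large subunit probes had a median difference of 0.12 and small subunit probes 0.06. In bulk tissue, fewer cells of a type and less RNA per cell cannot be told apart.

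**Figure D1:**
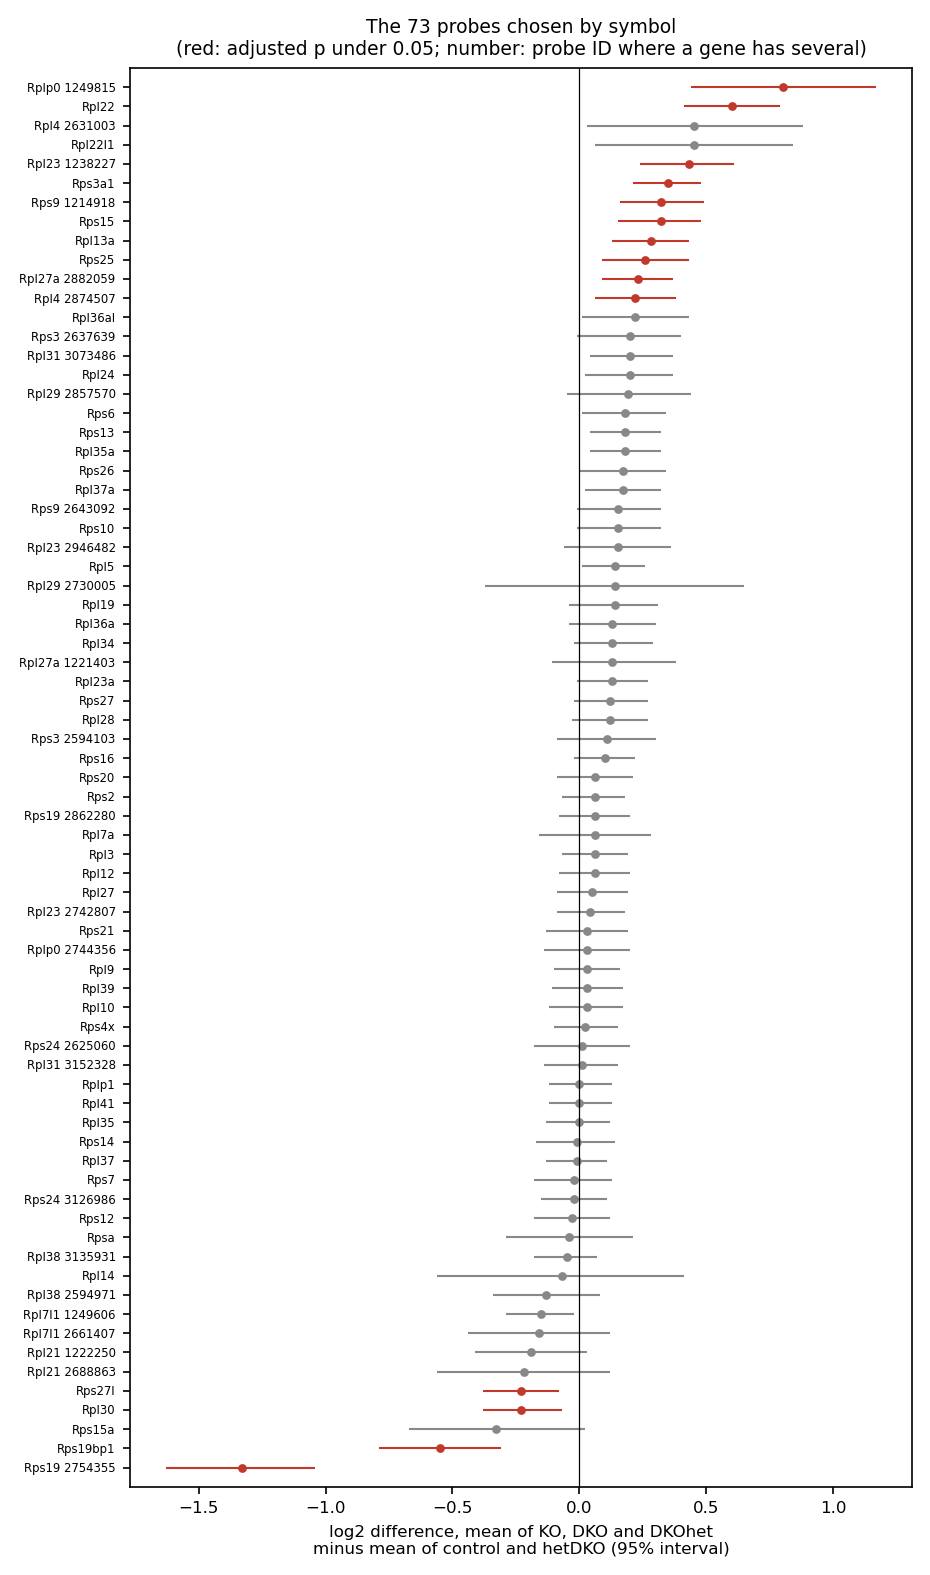
Log2 difference of each of the 73 probes (mean of KO, DKO and DKOhet minus mean of control and hetDKO, x axis), with its 95% interval as a line; probes called at an adjusted p under 0.05 are red. The differences run from -1.33 for a dim Rps19 probe to 0.80 for a dim Rplp0 probe, and 60 of the 73 lie within 0.25 of 0.

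Members above a mean intensity of 40000 varied least. This range holds 29 of the 73 members (39.7%), but 0.343% of the other kept probes, and members make up 37.7% of the 77 probes in it. There 1 of 29 members was called (3.45%), against 4 of 48 other probes (8.33%), and the SD of a member over the 16 arrays had a median of 0.08, against 0.09 for the other probes. Between 10000 and 40000 the rates were 8 of 25 members (32.0%) and 26.4% of other probes. In that range 7 of the 8 called members were higher, and the members' median difference was 0.18, against -0.02 for the other probes. Below 10000 the shares of members called were near those of the other probes. Under 2000 they were 3 of 12 members (25.0%) and 25.3% of other probes, and from 2000 to 10000 they were 2 of 7 members (28.6%) and 30.9% of other probes. Over the 73 members, intensity and the size of the difference had a Spearman rho of -0.64, and intensity and SD a rho of -0.86. These are descriptions over probes that share the arrays. The array maxima were 63796.2 to 68293.1 and 5 members averaged above 60000, while the table gives no mark for saturated probes. What part brightness has in the number of calls was not tested.

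**Figure D2:**
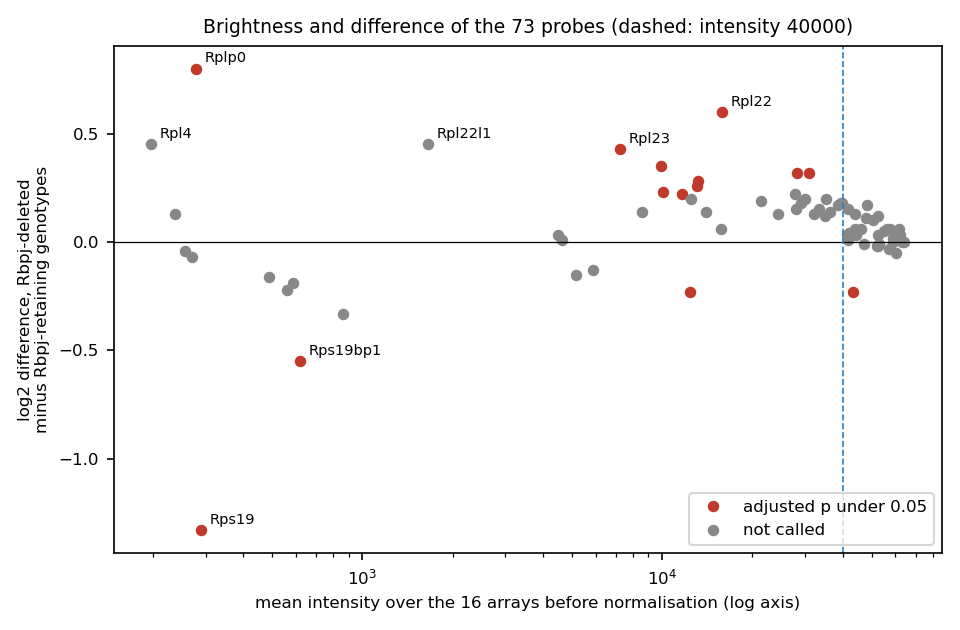
Log2 difference (mean of KO, DKO and DKOhet minus mean of control and hetDKO, y axis) against mean intensity over the 16 arrays before normalisation (x axis, log scale), 1 point per probe; called probes are red and the dashed line marks 40000. To the right of the line 1 of 29 members is called and the differences lie between -0.23 and 0.17.

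Rpl22, a large subunit protein with a paralog of its own and a known role in mouse T cell development, separated the genotypes without overlap. Its signal was 14.23, 13.87 and 14.25 in KO, 14.19, 14.04, 14.49 and 14.21 in DKO, and 14.29 and 14.10 in DKOhet. It was 13.69, 13.73 and 13.54 in hetDKO and 13.66, 13.39, 13.55 and 13.43 in control. Every array with 2 floxed alleles therefore lay above every hetDKO and control array, with the closest pair at 13.87 in KO replicate 2 and 13.73 in hetDKO replicate 2. The difference was 0.60 ± 0.09 (SE), 1.52-fold (limma adjusted p = 0.00031). Rpl22 was the one member that lay wholly higher, and 3.12% of all kept probes did so. Within beadchip 2, where KO and hetDKO have 1 array each, the difference was 0.49 and was not called (adjusted p = 0.162).

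The paralog Rpl22l1 had 10.91, 10.81 and 10.58 in KO, 10.34, 10.72, 10.87 and 10.85 in DKO, and 10.70 and 10.89 in DKOhet. It had 10.78, 10.57 and 9.94 in hetDKO and 10.10, 9.79, 9.79 and 11.03 in control. The groups overlapped, since control replicate 4 was the highest of the 16 arrays. The difference of 0.45 (95% interval 0.06 to 0.84) was not called (adjusted p = 0.0855). Without control replicate 4 it was 0.59 and called (adjusted p = 0.00571).

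Rps3a1, a small subunit protein, was higher as well. It had 13.41, 13.45 and 13.43 in KO, 13.29, 13.33, 13.18 and 13.30 in DKO, and 13.66 and 13.52 in DKOhet, against 13.10, 13.20 and 12.99 in hetDKO and 13.02, 13.03, 13.04 and 13.18 in control. DKO replicate 3 lay at the level of control replicate 4 and just under hetDKO replicate 2, and the other arrays with 2 floxed alleles lay above all of hetDKO and control. The difference was 0.35 ± 0.06 (SE), 1.27-fold (limma adjusted p = 0.00123).

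Rpl23 and Rps9 rose on 1 probe each. Rpl23, a large subunit protein that can bind the p53 regulator MDM2 in human cells, had on its probe ILMN_1238227 a signal of 12.99 ± 0.11 in KO (SD, n = 3), 12.95 ± 0.16 in DKO (n = 4) and 13.01 ± 0.08 in DKOhet (n = 2). It had 12.53 ± 0.20 in hetDKO (n = 3) and 12.57 ± 0.15 in control (n = 4). The arrays overlapped slightly, at 12.75 in DKO replicate 2 and 12.77 in control replicate 4, and the difference was 0.43 ± 0.09 (limma adjusted p = 0.00257). Rps9, a small subunit protein, had on ILMN_1214918 a signal of 14.96 ± 0.07 in KO, 15.02 ± 0.07 in DKO and 15.17 ± 0.05 in DKOhet, against 14.76 ± 0.25 in hetDKO and 14.69 ± 0.10 in control (SD). Its difference was 0.32 ± 0.08 (limma adjusted p = 0.00758), and the arrays overlapped at 14.90 in KO replicate 3 and 14.93 in hetDKO replicate 1.

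Another 5 members were called higher, by 1.16-fold to 1.25-fold. Rps15, which takes part in the maturation of the small subunit, differed by 0.32 (adjusted p = 0.00817). Rpl13a, which in human monocytes also leaves the ribosome to silence messenger RNAs after interferon, differed by 0.28 (adjusted p = 0.00887). Rps25, needed for several viral internal ribosome entry sites in human and yeast cells, differed by 0.26 (adjusted p = 0.0289). Rpl27a differed by 0.23 on ILMN_2882059 (adjusted p = 0.0187) and Rpl4 by 0.22 on ILMN_2874507 (adjusted p = 0.0434). Rps15 was singled out after its values were seen. The call of Rpl4 was lost without any single KO, DKO, hetDKO or control array except KO replicate 3 and control replicate 4, and without DKOhet replicate 1, with differences of 0.19 to 0.23 in those fits. Rps25 lost its call without KO replicate 1, DKOhet replicate 1, DKOhet replicate 2 or hetDKO replicate 1 (adjusted p of 0.0515 to 0.0754), and Rpl27a without hetDKO replicate 2 (adjusted p = 0.0593). Under median scaling Rpl13a (0.18), Rps25 (0.16), Rpl27a (0.11) and Rpl4 (0.10) were not called.

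The largest decrease belonged to a dim probe of Rps19, a small subunit protein whose human gene is the one most often mutated in Diamond-Blackfan anaemia. ILMN_2754355 had 6.64, 7.12 and 7.01 in KO, 6.94, 7.16, 6.76 and 6.61 in DKO, and 6.26 and 6.87 in DKOhet. It had 8.29, 8.07 and 8.18 in hetDKO and 8.33, 8.29, 8.03 and 7.56 in control, so the 2 sets of arrays did not overlap. The difference was -1.33 ± 0.14 (SE), 2.52-fold lower (limma adjusted p = 1.73e-05). The probe was detected on 15 of 16 arrays, with 1 of the 2 DKOhet arrays not above background, and averaged 290 in intensity, where the offset shrinks differences. The brighter probe of the same gene, ILMN_2862280, averaged 56376 and had 15.76 ± 0.05 in KO, 15.82 ± 0.10 in DKO and 15.83 ± 0.04 in DKOhet, against 15.75 ± 0.01 in hetDKO and 15.74 ± 0.09 in control (SD). It differed by 0.06 (95% interval -0.08 to 0.20, adjusted p = 0.519). Both probes are annotated to the same gene, and where each lies in the transcript was not analysed here.

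The other members called lower were Rps19bp1, Rps27l and Rpl30. Rps19bp1, the binding partner of Rps19, had 8.77, 8.95 and 8.84 in KO, 8.69, 8.64, 8.66 and 8.73 in DKO, and 8.32 and 8.94 in DKOhet, against 9.09 to 9.28 in the 3 hetDKO arrays and 9.43, 9.21, 9.73 and 8.98 in control. These sets did not overlap either, by a margin of 8.95 in KO replicate 2 to 8.98 in control replicate 4, and the difference was -0.55 (limma adjusted p = 0.00288). With the dim Rps19 probe it makes 2 of 73 members that lay wholly lower, and 3.03% of all kept probes did so. Rps27l, a paralog of Rps27 that p53 induces in human cells, had 15.25 ± 0.07 in KO, 15.31 ± 0.08 in DKO and 15.34 ± 0.22 in DKOhet, against 15.57 ± 0.08 in hetDKO and 15.48 ± 0.07 in control (SD). It differed by -0.23 (adjusted p = 0.0249), and not past the threshold without DKOhet replicate 1 (-0.18) or hetDKO replicate 1 (-0.21), or under cyclic loess (-0.12). Its parent Rps27 differed by 0.12 (95% interval -0.02 to 0.27, adjusted p = 0.198). Rpl30, a large subunit protein, differed by -0.23 (adjusted p = 0.0297). That call was lost without KO replicate 1, DKOhet replicate 1, hetDKO replicate 1, control replicate 1 or control replicate 2 (differences of -0.22 to -0.19).

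**Figure D3:**
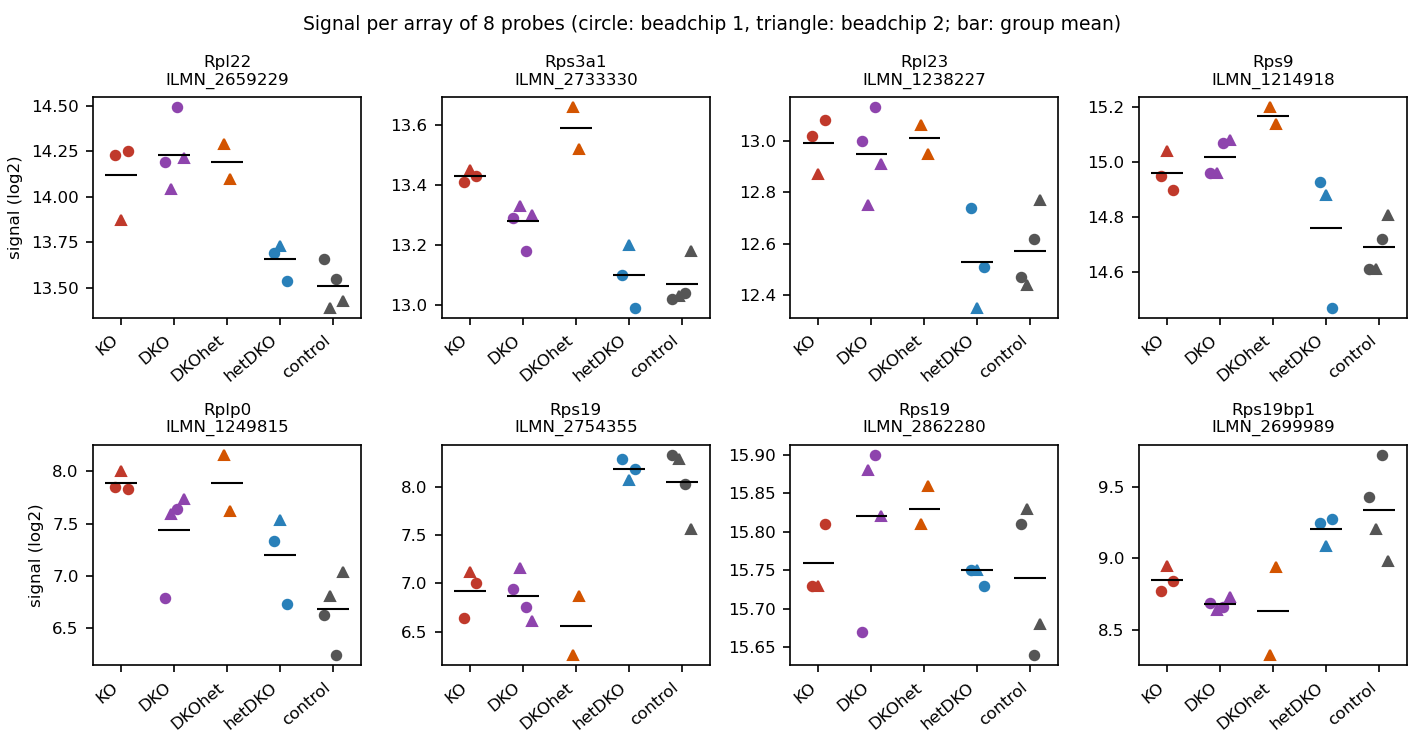
Signal on the log2 scale (y axis, a separate range in each panel) of 8 probes on each array, by genotype (x axis); circles are arrays of beadchip 1, triangles of beadchip 2, and bars are group means. Rpl22 lies higher and the dim Rps19 probe (ILMN_2754355) and Rps19bp1 lie lower on all 9 arrays with 2 floxed Rbpj alleles than on the 7 others, while the bright Rps19 probe (ILMN_2862280) overlaps throughout.

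The proteins of the ribosomal stalk, which recruits translation factors, gave mixed results by probe. Rplp0 anchors the stalk, and its dim probe ILMN_1249815 had 7.85, 8.0 and 7.83 in KO, 6.79, 7.59, 7.64 and 7.74 in DKO, and 8.16 and 7.62 in DKOhet. It had 7.33, 7.53 and 6.73 in hetDKO and 6.62, 6.81, 6.24 and 7.04 in control, where 1 array was not above background. DKO replicate 1 lay among the control arrays and the other arrays with 2 floxed alleles lay above all of them. The difference was 0.80 ± 0.17 (SE), 1.74-fold (limma adjusted p = 0.00359). The brighter Rplp0 probe ILMN_2744356 had 12.14 ± 0.09 in KO, 12.15 ± 0.11 in DKO and 12.01 ± 0.21 in DKOhet, against 12.18 ± 0.09 in hetDKO and 11.97 ± 0.16 in control (SD), a difference of 0.03 (95% interval -0.14 to 0.20). Rplp1, the acidic stalk protein, had a mean intensity of 64238 and group means of 15.96 to 15.99. Its difference was 0.00 (95% interval -0.12 to 0.13). That intensity lies near the array maxima of 63796.2 to 68293.1, where a change may not show. Rpsa, also known as the laminin receptor, differed by -0.04 (95% interval -0.29 to 0.21) on a dim probe that averaged 256.

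Other paralogs and their parents were not called. Rpl36al differed by 0.22 (95% interval 0.01 to 0.43) and its parent Rpl36a by 0.13 (-0.04 to 0.30). Both Rpl7l1 probes were negative, at -0.15 (adjusted p = 0.0949) and -0.16 (adjusted p = 0.402). The X-linked or widely expressed parents Rps4x (0.02), Rpl3 (0.06), Rpl10 (0.03) and Rpl39 (0.03) stayed within 0.1 of no change, and the paralogs Rpl3l, Rpl10l, Rpl39l and Rps4l were not analysed here.

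Rpl5, Rps6, Rps3 and Rpl38 were also named for their well known roles, and they were not called. Rpl5, which joins the 5S ribosomal RNA and can bind Mdm2, had 15.16 ± 0.08 in KO, 15.16 ± 0.03 in DKO and 15.27 ± 0.01 in DKOhet, against 15.09 ± 0.04 in hetDKO and 15.03 ± 0.05 in control (SD), a difference of 0.14 (adjusted p = 0.0963). Rps6, the substrate of the S6 kinases, differed by 0.18 (adjusted p = 0.116). Rps3, which also has a role in DNA repair, differed by 0.11 and 0.20 on its probes (adjusted p = 0.417 and 0.141), and the second was called without control replicate 4 (0.27, adjusted p = 0.00648). Rpl38, whose loss in mice changes the translation of Hox messenger RNAs, differed by -0.13 and -0.05 (adjusted p = 0.373 and 0.540).

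Probes of the same gene often gave different answers. Of 13 genes with several kept probes, 6 had both called and uncalled ones: Rpl23, Rpl27a, Rpl4, Rplp0, Rps19 and Rps9. Rpl23 had 0.43 on its called probe, 0.15 on ILMN_2946482 and 0.04 on ILMN_2742807. Rps9 had 0.32 on its called probe and 0.15 on ILMN_2643092, and Rpl27a 0.23 on its called probe and 0.13 on ILMN_1221403. The dim Rpl4 probe ILMN_2631003, detected on 9 of 16 arrays, differed by 0.45 with a wide interval (0.03 to 0.88). In Rpl23, Rplp0, Rps19 and Rps9 the called probe was the dimmer or dimmest one kept, and in Rpl27a and Rpl4 the brighter one. The 2 probes of Rps19 correlated at -0.28 over the 16 arrays, those of Rplp0 at 0.37 and those of Rps9 at 0.48. For genes without a call, the correlation ran from -0.34 in Rpl31 to 0.87 in Rpl29.

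**Figure D4:**
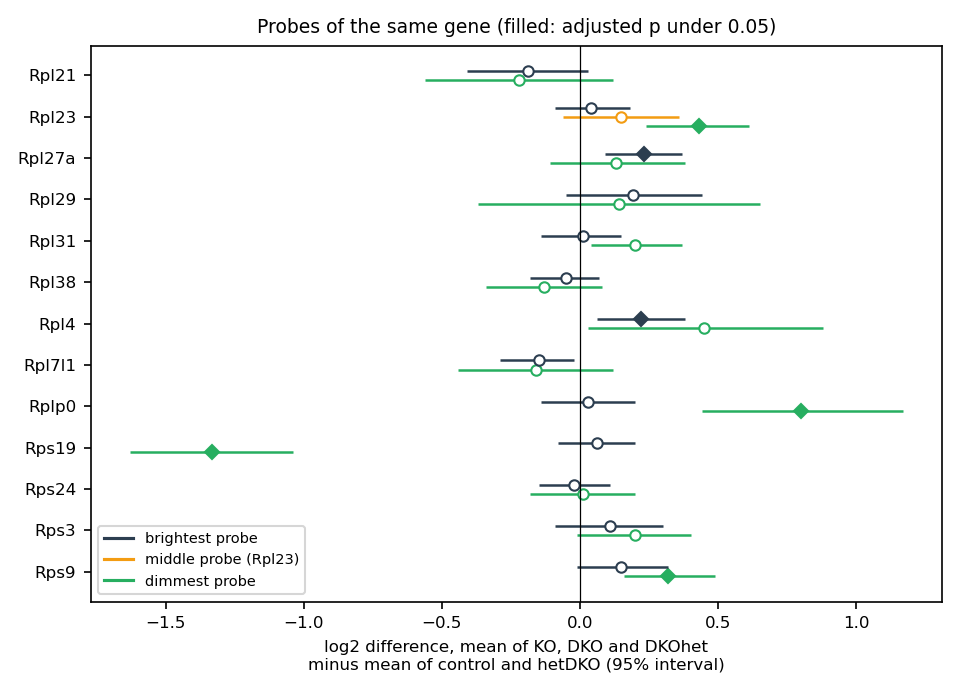
Log2 difference (mean of KO, DKO and DKOhet minus mean of control and hetDKO, x axis) with its 95% interval for the probes of the 13 genes that have several; colour gives the order of brightness within the gene and diamonds mark called probes. The 2 Rps19 probes lie at -1.33 and 0.06 and the 2 Rplp0 probes at 0.80 and 0.03, while the probes of Rpl21, Rpl29 and Rps24 lie within 0.1 of each other.

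Each genotype was also set against control alone. Control hearts were wild type, while all other genotypes carried MesP1-cre. Effects of cre and of the altered alleles therefore cannot be told apart against control. These comparisons share the control arrays, so their values are given side by side and are not independent. In KO 4 members were called (5.48%, against 7.58% of all kept probes), 3 higher and 1 lower, where 3.61% of all kept probes were higher and 3.97% lower. In DKO 5 were called (6.85%, against 13.2%), 3 higher and 2 lower, where 6.68% of all kept probes were higher and 6.51% lower. In DKOhet 6 were called (8.22%, against 8.61%), 4 higher and 2 lower, where 4.30% of all kept probes were higher and 4.32% lower. The 8.22% in DKOhet was close to the background, and in several other fits the members' share lay above that of all probes. In KO this held without control replicate 4 (8 of 73 against 7.52%) and with the replicate block (9.59% against 8.81%), and in DKOhet under cyclic loess (9.59% against 7.99%) and with odd or even replicate number as a block (13.7% against 11.7%). Arrays that did not overlap with control were counted too. In KO 16 of 73 members lay wholly higher and 5 wholly lower, against 9.61% and 10.7% of all kept probes. In DKO 8 lay higher and 2 lower (9.30% and 9.96% of all kept probes), and in DKOhet 17 lay higher and 3 lower (14.5% and 16.1%).

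Rpl22 differed from control by 0.61 in KO (adjusted p = 0.0143), 0.73 in DKO (0.00213) and 0.69 in DKOhet (0.0138). The dim Rps19 probe differed by -1.13 in KO (adjusted p = 0.0051), -1.18 in DKO (0.00151) and -1.49 in DKOhet (0.00217). The dim Rplp0 probe differed by 1.21 in KO (adjusted p = 0.0116), 0.76 in DKO (0.0448) and 1.21 in DKOhet (0.02). Rps3a1 was called in KO (0.36, adjusted p = 0.0339) and DKOhet (0.52, 0.00937), Rps19bp1 in DKO (-0.66, 0.0139) and DKOhet (-0.71, 0.0354), Rpl23 in DKO (0.38, 0.0495) and Rps9 in DKOhet (0.48, 0.0372). All of these p-values are from the limma fit.

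Several of these calls rest on single arrays. The KO count fell to 2 without KO replicate 1 or KO replicate 3, where Rpl22 missed the threshold (adjusted p = 0.059 and 0.0593), and rose to 8 without control replicate 4. Rps3a1 in KO lost its call without any one of KO replicates 1 to 3 or control replicates 1 to 3 (adjusted p of 0.0674 to 0.085). The DKO count fell to 3 without DKO replicate 3, DKO replicate 4, or control replicate 1, 2 or 3, and rose to 8 without control replicate 4. In DKO Rpl23 lost its call without DKO replicate 1, 3 or 4 or control replicate 1, 2 or 3 (adjusted p of 0.0856 to 0.141), and Rplp0 without DKO replicate 2, 3 or 4 or control replicate 1, 2 or 3 (0.0656 to 0.126). The DKOhet count fell to 0 without DKOhet replicate 1, which leaves 1 array that is assumed to vary like the other groups, and to 3 without control replicate 3. Rps9 in DKOhet was also lost without DKOhet replicate 2 or control replicate 1 or 2 (adjusted p of 0.0737 to 0.106), and Rps19bp1 without control replicate 1 (0.0763). The dim Rps19 probe kept its call in KO and DKO without any single array, and so did Rplp0 in KO and Rpl22 and Rps19bp1 in DKO.

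Within each beadchip the leading differences kept their sign. Within beadchip 1 and then beadchip 2, Rpl22 differed from control by 0.63 and 0.46 in KO and by 0.74 and 0.72 in DKO. The dim Rps19 probe differed by -1.35 and -0.81 in KO and by -1.33 and -1.04 in DKO, and the dim Rplp0 probe by 1.41 and 1.07 in KO and by 0.79 and 0.74 in DKO. Fewer probes pass in these smaller fits. Within beadchip 1, 2 members were called in KO (2.74%, against 1.80% of all kept probes) and 3 in DKO (4.11%, against 3.24%). Within beadchip 2 none was called in either, where 95 and 22 of all kept probes were. Beadchip 1 holds no DKOhet array.

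HetDKO hearts, which lack Axin2 but keep 1 unfloxed Rbpj allele, gave no called member against control, and no kept probe was called at all. At an unadjusted limma p under 0.05 stood 1 member and 545 of all kept probes. The same member was the one that lay wholly higher than control, as did 2.53% of all kept probes, and none lay wholly lower (2.74%). That member was Rpl14, a large subunit protein, on a dim probe detected on 14 arrays. It had 7.95, 8.16 and 7.54 in hetDKO and 6.70, 7.12, 6.14 and 7.20 in control, which do not overlap, and differed by 1.09 (95% interval 0.38 to 1.81, adjusted p = 0.998). The next by p were the dim Rplp0 probe at 0.52 and the dim Rpl4 probe at 0.55, with the same adjusted p of 0.998. The median member difference was 0.02, against 0.08 in KO, 0.08 in DKO and 0.10 in DKOhet.

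DKO against hetDKO sets the 2 floxed alleles against 1 where Axin2 is absent in both. Here 2 members were called (2.74%, against 7.86% of all kept probes), 1 higher and 1 lower, where 4.08% of all kept probes were higher and 3.78% lower. The dim Rps19 probe had 6.87 ± 0.24 in DKO (SD, n = 4) and 8.18 ± 0.11 in hetDKO (n = 3), a difference of -1.31 (limma adjusted p = 0.00183). Rpl22 had 14.23 ± 0.19 in DKO and 13.66 ± 0.10 in hetDKO, a difference of 0.58 (adjusted p = 0.0166). The Rpl22 call was lost without hetDKO replicate 1 (adjusted p = 0.055) or hetDKO replicate 3 (0.0768), so the count fell to 1 there. The third by p, Rpl23 at 0.42, was not called (adjusted p = 0.0613).

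Loss of Axin2 with both Rbpj alleles floxed changed no member past the threshold. In DKO against KO no member was called, and 2 of all kept probes were (0.0142%), while 1 member stood at an unadjusted p under 0.05. The leading members by p were Rpl14 at -0.75 (95% interval -1.46 to -0.03), Rpl36al at 0.31 (0.00 to 0.62) and the dim Rplp0 probe at -0.45 (-0.99 to 0.09). In DKO against DKOhet no probe of any kind was called, and again 1 member stood at an unadjusted p under 0.05. That was Rps3a1 at -0.31 (95% interval -0.54 to -0.09, adjusted p = 1), followed by the dim Rpl27a probe at -0.33 and Rps24 at 0.17. The interaction was DKO minus KO minus hetDKO plus control. Control hearts were wild type, while hetDKO hearts carried MesP1-cre and 1 floxed Rbpj allele. Dependence on Axin2 therefore cannot be told apart from these differences. The interaction called no member and 1 of all kept probes (0.00711%), and 2 members stood at an unadjusted p under 0.05. Rpl14 led it at -1.84 (95% interval -2.85 to -0.83, adjusted p = 0.938), followed by the dim Rplp0 probe at -0.97 and the dim Rpl4 probe at -0.89. Tested for any difference among the 5 genotypes, 6 members were called (8.22%, against 11.1% of all kept probes), and 3 without control replicate 1 or control replicate 3.

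For the family as a whole, median differences from control were 0.02 to 0.10 under quantile normalisation. The pooled SD of the family median of an array within genotypes was 0.016. On each array the median deviation of the 73 probes from their own means was 0.01 to 0.05 in KO, 0.03 to 0.04 in DKO and 0.05 to 0.07 in DKOhet, against -0.05 to -0.01 in hetDKO and -0.07 to -0.04 in control. The arrays with 2 floxed alleles were all positive and the others all negative under quantile normalisation. This order depended on the scaling. Under cyclic loess DKO replicate 2 was at -0.01, below control replicate 4 at 0.00, and under median scaling the genotypes overlapped, with KO replicate 2 at -0.02 and control replicate 3 at 0.05. The median difference was 0.06 under quantile normalisation and median scaling and 0.18 under cyclic loess, where 27 members were called (37.0%, against 26.3% of all kept probes). The median in DKOhet against control was 0.10 under quantile normalisation, 0.22 under cyclic loess and 0.05 under median scaling. HetDKO against control changed sign with the scaling, from 0.02 under quantile normalisation to -0.04 under cyclic loess and under median scaling.

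**Figure D5:**
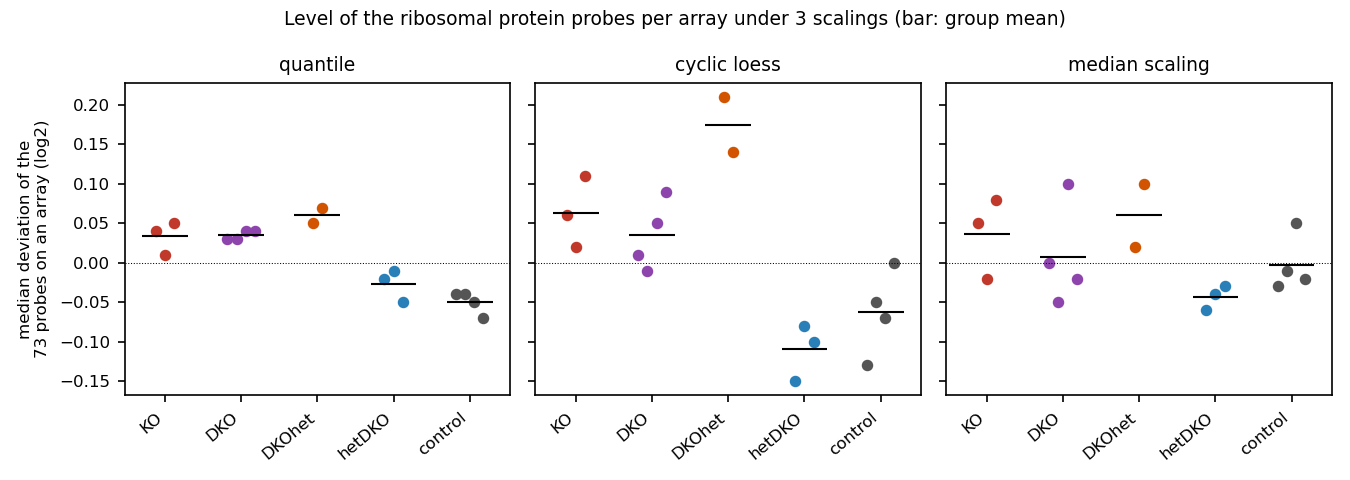
Median deviation of the 73 probes from their own mean over the arrays (y axis, log2) on each array, by genotype (x axis), under quantile normalisation, cyclic loess and median scaling; bars are group means. Under quantile normalisation the 9 arrays with 2 floxed Rbpj alleles lie at 0.01 to 0.07 and the 7 others at -0.07 to -0.01, and under median scaling the genotypes overlap.

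The starts of the called genes were read for the pyrimidine run of TOP messenger RNAs. Windows of 30 bases, from 15 before to 15 after the annotated start, come from RefSeq (GRCm38.p6) and cover 51 of the 59 symbols. A run was taken as a C followed by at least 5 bases that are each C or T, read along the strand of the gene alone, and no other motif was searched. The windows below show called genes with the run, which is in capitals, and then Rpl22 and Rps3a1, which were called higher and hold none. All are printed 5′ to 3′ on the strand of the gene.
Rpl13a, chr7:45128731-45128760, minus strand: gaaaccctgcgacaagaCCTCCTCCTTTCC
Rpl27a, chr7:109519180-109519209, plus strand: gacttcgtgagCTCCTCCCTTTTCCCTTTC
Rps9, chr7:3704026-3704055, plus strand: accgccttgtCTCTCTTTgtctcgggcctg
Rpl4, chr9:64173372-64173401, plus strand: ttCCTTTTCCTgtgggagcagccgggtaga
Rps27l, chr9:66946071-66946100, plus strand: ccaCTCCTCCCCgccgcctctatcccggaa
Rpl22, chr4:152324421-152324450, plus strand: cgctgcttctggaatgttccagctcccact
Rps3a1, chr3:86142654-86142683, minus strand: ttaaagccggaagggcgaaagagcaagggt

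The run was present at 27 of the 51 member genes (52.9%), against 25.5% of all genes with an entry. It was present at 6 of 13 called genes (46.2%) and at 21 of 38 genes without a call (55.3%). Rpl22 holds none at either of its annotated starts, and Rps19 holds it at 1 of 3. A match is a description of these letters, and in Rpl4 and Rps27l the run lies wholly before the annotated start. An annotated start may lie some bases from the one used in the heart.

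Genes that share the TOP tract or work beside the ribosome were counted in the same main comparison, where 12.2% of all kept probes were higher and 14.3% lower. Of 26 probes for 15 other TOP genes and ribosomal proteins under other names, 6 were higher, 1 was lower and 19 were not called, with a median of 0.16. Fau, which encodes a small subunit protein fused to a ubiquitin-like one, had 15.30 ± 0.07 in KO, 15.29 ± 0.06 in DKO and 15.14 ± 0.15 in DKOhet, against 14.95 ± 0.08 in hetDKO and 14.96 ± 0.08 in control (SD), a difference of 0.29 (adjusted p = 0.00515). Eef1b2, a subunit of the elongation factor 1 exchange complex, was higher on 3 probes (0.24 to 0.41). Eif4b was higher on its probe (0.46, adjusted p = 0.0484), and Eef2 on 1 of 3 probes (0.49, adjusted p = 0.044), with 0.45 and 0.38 on the others (adjusted p = 0.0729 and 0.0814). Eef1d, of the same exchange complex as Eef1b2, was lower on ILMN_3139168 (-0.99, adjusted p = 6.92e-05) and not called on its other probes (-0.06 and -0.11).

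Ribosome biogenesis genes leaned the other way. Of 51 probes for 34 genes, 1 was higher and 16 (13 genes) were lower, with a median of -0.15. Bop1, which processes the ribosomal RNA of the large subunit, had 10.56 ± 0.14 in KO, 10.31 ± 0.29 in DKO and 10.03 ± 0.39 in DKOhet, against 11.18 ± 0.04 in hetDKO and 10.96 ± 0.34 in control (SD), a difference of -0.77 (adjusted p = 0.000888). Noc4l, of the small subunit pathway, was lower on 2 probes (-0.58 and -0.46), and Pes1, the partner of Bop1, by -0.28. Polr1c, a subunit shared by RNA polymerases I and III, was higher (0.52, adjusted p = 6.32e-05). Ncl and Fbl, abundant nucleolar proteins, were not called (Ncl at -0.20 and -0.27, Fbl at -0.03).

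Among initiation factors, 3 of 33 probes were higher and 6 lower (median -0.14). The helicase paralogs differed in sign: Eif4a2 was higher on both probes (0.89 and 0.88), and Eif4a1 was lower (-0.24, adjusted p = 0.0133). Of 23 probes for genes of mTOR control, 6 were higher and 3 lower (median -0.01). Ddit4, which inhibits mTORC1, had 13.54 ± 0.40 in KO, 13.48 ± 0.36 in DKO and 13.68 ± 0.44 in DKOhet, against 10.89 ± 0.19 in hetDKO and 11.04 ± 0.21 in control (SD), 6.07-fold higher (adjusted p = 7.91e-08). Sesn2, another inhibitor of mTORC1, was higher (adjusted p = 0.00226). Its probe was detected on all 9 arrays with 2 floxed alleles but on 3 of the 7 hetDKO and control arrays, so no fold is given. Rictor, a subunit of mTORC2, had 11.28 to 11.78 on the 9 arrays with 2 floxed alleles and 10.57 to 11.22 on the others, 1.52-fold higher without overlap (adjusted p = 0.00103). Tsc1, which restrains mTORC1, differed by 0.40 (adjusted p = 0.0392) on a probe detected on 15 of 16 arrays, and Myc, a transcription factor that promotes ribosome production, by 0.37 (adjusted p = 0.00275). Eif4ebp1, which blocks cap-dependent initiation, was 1.57-fold higher (adjusted p = 0.000546). The 3 lower probes were all of Mlst8, a subunit of both mTOR complexes (-0.34 to -0.31), and Mtor itself was not called (0.02). In hetDKO against control no probe of these 4 lists was called.

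Markers of the cells in these hearts were read beside the family. Heart muscle markers were detected (13 of 14 genes), with sums of normalised intensity, divided by 1000, of 96.0 to 176 in KO, 133 to 174 in DKO, 141 to 193 in DKOhet, 134 to 165 in hetDKO and 136 to 197 in control. Of their 15 probes 1 was called in the main comparison, Nppa at 0.46. There 26.4% of all kept probes were called, and the marker calls below are from it unless control is named. Sums for blood cell precursors were 304 to 376 in KO, 211 to 330 in DKO, 227 to 302 in DKOhet, 271 to 345 in hetDKO and 263 to 359 in control, and 1 of 14 probes was called (Klf1, -1.19). These sums overlapped. The median difference of the 14 probes from control was 0.14 in KO, -0.65 in DKO, -0.62 in DKOhet and -0.01 in hetDKO, with none called. Sums of endothelial markers overlapped between all genotypes (6.98 to 9.56 in KO, 7.39 to 8.84 in DKO, 8.25 to 9.58 in DKOhet, 8.0 to 9.37 in hetDKO and 8.06 to 8.99 in control), with 2 probes of Pecam1 higher and 2 of Nfatc1 lower. Liver and yolk sac markers summed to at most 6.30, and Rbp4 was called higher on a probe detected on 9 of 9 arrays with 2 floxed alleles and 4 of 7 others. Neural tube markers, with 3 of 7 genes measured, were 2.67 to 2.97 in KO, 2.06 to 3.50 in DKO and 2.94 to 3.51 in DKOhet, against 3.31 to 3.90 in hetDKO and 3.65 to 5.20 in control, and Dbx1 and Nes (-0.59 on its called probe) were lower. The other 3 of 5 probes were not called. Sox2, the remaining gene, had means on ILMN_1248711 of 8.30 in KO, 7.86 in DKO and 8.55 in DKOhet, against 7.79 in hetDKO and 7.91 in control. On ILMN_2656102 it had 7.76, 7.75 and 7.80, against 7.77 and 8.20. The Dbx1 probe was detected on 3 of the 9 arrays with 2 floxed alleles and on all 7 others, at 5.46 to 7.40 and 8.63 to 9.82, so its difference is not given as a fold. The part of these cell types in the ribosomal protein results was not tested.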

How the data were processed

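Labelled cRNA from 16 heart samples was read on Illumina beadchips. The authors deposited mean bead intensity per probe and array on a linear scale, not normalised, with a detection p-value for each, as the file headers show (per the file headers). BeadStudio appears in the submitters' processing notes, with neither version nor settings. The authors' deposited value table, also intensity on a linear scale, served as an alternative only. Lines without a probe identifier (2) were skipped. The number of arrays limits the precision.

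With limma 3.58.1 (R 4.3.3), background was taken off by normexp from the detection p-values (nec), 16 was added, then came quantile normalisation between arrays and log2. A probe was kept if detected (p under 0.05) on 2 arrays or more. One mean per genotype was fitted to all 16 arrays (11 residual and 3.52 prior degrees of freedom). The 9 contrasts and an F test were each adjusted with Benjamini-Hochberg across kept probes; tests are two-sided. The fit was also run on simulated data with independent noise between arrays, which cannot check for effects of beadchip or of related samples. Probe symbols come from the platform annotation and promoter windows from RefSeq.

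Members and lists were chosen with earlier results of these data known. In each comparison up to 10 called members were named, or the 3 with the smallest p, besides members named for their role, as paralogs, or for probes that differ in call; related genes were named where called or among the smallest p. Alternatives covered background, scaling, offset, filters, beadchip, replicate number and single arrays left out. Same-numbered arrays deviated together in DKO and control (correlations 0.18 to 0.31 over 4 pairs) and in KO and DKO (0.13 to 0.24 over 3 pairs). Same-numbered arrays of other genotypes gave -0.01 to 0.35. Each DKO and control pair and each KO and DKO pair also shared a beadchip, and differently numbered arrays were not compared. Pairing by number therefore cannot be told apart from a shared beadchip. The reported fits use no pairs, and the labels do not say what a number marks.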

Additional observations from a re-analysis of the deposited data

Results flagged for a closer look

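In 84 groups of 4 arrays (DKO and control, for each named probe and for the family median), 8 had a lowest or highest array that stood apart from the other 3 by Dixon's test; chance flags about 1 in 20 such groups. Of the 8, 4 are control replicate 4: Rps3a1 at 13.18 (others 13.02 to 13.04), Rps3 on ILMN_2637639 at 15.39 (others 14.77 to 14.81), Rps15 at 14.49 (others 14.59 to 14.60) and Rps25 at 13.22 (others 13.67 to 13.70). Another 3 are DKO replicate 1: the dim Rplp0 probe at 6.79 (others 7.59 to 7.74), Rps27l at 15.43 (others 15.26 to 15.27) and Rpl27a on ILMN_2882059 at 13.21 (others 13.38 to 13.41). The last is DKO replicate 3, with Rpl4 on ILMN_2874507 at 13.56 (others 13.64).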

How the results depend on the processing

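Counts of called members are given beside the reported 4 in KO, 5 in DKO, 6 in DKOhet and 0 in hetDKO (each against control), 2 in DKO against hetDKO, 14 in the mean comparison and 6 for any difference. Brackets give the share of members called and that of all kept probes in the same fit. With beadchip as a block the count was 7 in KO (9.59%, all 9.89%) and 4 in DKO against hetDKO (5.48%, all 1481 of 14058). Odd or even replicate number matches beadchip on every array except DKOhet replicate 1, so these blocks are nearly the same. In DKOhet the beadchip block gave 7 (9.59%, all 10.3%). With odd or even replicate number as a block the count was 7 in KO (9.59%, all 10.1%), 10 in DKOhet (13.7%, all 11.7%) and 4 in DKO against hetDKO (5.48%, all 11.7%). With the replicate block it was 7 in KO (9.59%, all 8.81%), 4 in DKO against hetDKO (5.48%, all 9.43%) and 10 for any difference (13.7%, all 15.2%). Same-numbered arrays were not shown to pair in any comparison. The replicate block gave 6 in DKO against control and 0 in DKO against KO. Detected on all arrays, KO had 2 (2.90%, all 1038 of 10922). Cyclic loess gave 27 in the mean comparison (37.0%, all 26.3%), the opposite order of the reported 19.2% and 26.4%. The members' share lay above that of all probes in 4 of 20 alternatives in KO, 2 of 21 in DKO, 8 of 18 in DKOhet, 2 of 28 in the mean comparison and 1 of 28 for any difference. Within beadchip 1 KO had 2 (2.74%, all 1.80%) and DKO 3 (4.11%, all 3.24%), and within beadchip 2 each of these comparisons had 0, with smaller groups. Of all kept probes, 253 in KO and 456 in DKO were called within beadchip 1, against 1065 and 1854 on all arrays. Within beadchip 2, 154 were called in the mean comparison, against 3713.

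Median differences moved by more than the spread between arrays (SD 0.016) as follows. Cyclic loess gave 0.12 in KO, 0.11 in DKO, 0.22 in DKOhet and -0.04 in hetDKO, 0.16 in DKO against hetDKO, -0.03 in DKO against KO, -0.12 in DKO against DKOhet, 0.18 in the mean comparison and 0.01 in the interaction. Median scaling gave 0.04 in KO, 0.01 in DKO, 0.05 in DKOhet, -0.04 in hetDKO, -0.03 in DKO against KO and 0.02 in the interaction. The mean comparison gave 0.08 with no filter on dim probes or without Rps19bp1. The interaction gave 0.00 with a block for beadchip, odd or even number, or replicate, and the replicate block gave 0.06 in KO and 0.01 in DKO against KO. Within beadchip 2 KO gave 0.05, DKO against KO 0.03 and DKO against hetDKO 0.05.

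With single arrays left out, counts ran from 2 to 8 in KO, 3 to 8 in DKO, 0 to 9 in DKOhet, 1 to 3 in DKO against hetDKO, 11 to 19 in the mean comparison and 3 to 8 for any difference, and stayed at 0 in hetDKO. Medians ran from 0.05 to 0.08 in KO, 0.07 to 0.11 in DKO, 0.09 to 0.10 in DKOhet, 0.01 to 0.03 in hetDKO, 0.06 to 0.08 in DKO against hetDKO, -0.02 to 0.01 in DKO against KO, -0.03 to -0.01 in DKO against DKOhet, 0.06 to 0.10 in the mean comparison and -0.04 to -0.01 in the interaction. Of 713 alternative values for 31 called differences of named probes, 603 stayed past the threshold, 110 did not and 0 changed sign; 31 of the 110 are within beadchip 2 and 60 leave out an array. Causes were not tested. Dim probes near background and members near the top of the intensity range limit what these arrays can show.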
